A study of Arabidopsis thaliana with 144 samples.

Results

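Genes for the synthesis of camalexin, the main phytoalexin of Arabidopsis, and for the transcription factor that switches it on were followed in RNA-seq counts of whole seedlings. RNA counts do not measure camalexin itself. The 5 genes were picked by locus: WRKY33 (AT2G38470), CYP71A12 (AT2G30750), CYP71A13 (AT2G30770), GSTF6 (AT1G02930) and PAD3 (AT3G26830). They are 5 of the 27206 genes in the count table, and all 5 are among the 19321 that passed the filter on low counts. The seedlings were the wild type Col-0, the mutant phf1, which lacks the factor that lets phosphate transporters leave the endoplasmic reticulum, and the mutant phr1 phl1, which lacks MYB factors that switch on the phosphate (Pi) starvation response. All germinated for 7 days with sucrose on 1 of 3 pre-treatments: −P, with Pi at 5 µM, +P, with Pi at 1 mM, or +Phi, with phosphite, a Pi analogue that is taken up without being metabolised, at 1 mM. They then grew for 12 days without sucrose at low Pi (50 µM) or high Pi (625 µM), with no bacteria added or with the synthetic community called SynCom. Each of the 36 groups had 4 libraries, 2 from each of 2 independent experiments, A and B, and the experiments are kept apart here.

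Arabidopsis makes camalexin from tryptophan through indole-3-acetaldoxime when it meets bacteria, fungi or their surface molecules, in roots as well as in leaves. CYP71A13 and its near copy CYP71A12 turn the aldoxime into indole-3-acetonitrile, GSTF6 joins that product to glutathione, and PAD3, also known as CYP71B15, closes the ring in the last steps. WRKY33 is activated by the mitogen-activated kinases MPK3 and MPK6, binds the W box, whose core is TTGAC, and is known to bind the promoters of CYP71A13 and PAD3 and its own.

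The stretches upstream of WRKY33, CYP71A12 and CYP71A13 are shown because WRKY33 is the regulator and because the near copies had different counts in these libraries. They are given 5′ to 3′ in the direction of the gene, from the RefSeq annotation of TAIR10.1 (the authors name TAIR10), with the W-box core in capitals, as TTGAC on the gene's strand or GTCAA on the other. The WRKY33 stretch is the 250 bases before the annotated start (chr2:16107985-16108234, plus strand), and the others stop 50 bases short of the annotated start, since the gene models of CYP71A12 (chr2:13101422-13101621, minus strand) and CYP71A13 (chr2:13112039-13112238, minus strand) begin at the start codon.
WRKY33: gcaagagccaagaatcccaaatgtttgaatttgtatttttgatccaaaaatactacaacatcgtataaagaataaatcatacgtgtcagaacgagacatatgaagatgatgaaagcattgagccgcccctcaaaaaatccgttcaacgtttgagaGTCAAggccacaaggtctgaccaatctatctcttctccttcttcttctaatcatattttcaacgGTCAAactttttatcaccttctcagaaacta
CYP71A12: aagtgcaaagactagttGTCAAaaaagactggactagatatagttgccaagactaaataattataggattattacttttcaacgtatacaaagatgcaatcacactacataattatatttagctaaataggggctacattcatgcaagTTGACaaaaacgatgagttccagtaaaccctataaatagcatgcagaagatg
CYP71A13: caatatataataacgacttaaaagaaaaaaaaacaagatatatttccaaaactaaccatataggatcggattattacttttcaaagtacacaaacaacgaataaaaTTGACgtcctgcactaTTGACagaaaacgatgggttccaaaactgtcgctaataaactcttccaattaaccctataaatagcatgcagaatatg
The core occurred 2 times in the 250 bases before each of these genes. It stood 95 and 31 bases before WRKY33 and 233 and 102 before CYP71A12. The nearer core of CYP71A13 stood 128 bases before its start, on the gene's strand like the other. GSTF6 had 1 core, 104 bases before its start, and PAD3 had 0 in its window. Of 27443 promoters of the same length, 44.93% held at least 1 core on either strand and 14.11% at least 2, so that a match describes the letters and not a bound site. The genes span 16108235 to 16110766 (WRKY33), 13099486 to 13101371 (CYP71A12) and 13109909 to 13111988 (CYP71A13) on chromosome 2, 661088 to 662475 on chromosome 1 (GSTF6) and 9887917 to 9889791 on chromosome 3 (PAD3). CYP71A12 and CYP71A13 lie 8537 bases apart and share 1350 of 1494 coding bases (90.36%), with no identical run over 59 bases, while their upstream windows align with 68.22% identity.

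The libraries held 0.72 to 10.7 M counts (M, 1e6 counts; median 4.1 M, 4.21 M in A and 3.80 M in B), and levels are CPM, counts scaled to a library of 1e6 counts, with TMM-scaled library sizes. Nothing in the labels says how the 2 libraries of a group within an experiment relate, so p-values measure the spread between these libraries. Root markers and shoot markers were both counted, and none of the 14 was at 0 in every library. Mean CPM of PHR1 was 69.0 in Col-0, 62.0 in phf1 and 30.4 in phr1 phl1. Mean CPM of PHL1 was 15.5, 14.8 and 70.1, higher in the mutant named for it, and PHF1 had means of 27.2 in Col-0 and 19.1 in phf1. In 4 libraries, all of experiment A, PHR1 or PHL1 went against the label, and they are kept under it: Col-0 +Phi at low Pi without bacteria (A1), phr1 phl1 +P at high Pi with SynCom (A1), and phf1 at high Pi with SynCom after −P (A2) and after +Phi (A1). Leaving them out added 10 calls of single results and ended 5, which are given beside the comparisons. A further fit also left out the library of fewest counts, A1 of phr1 phl1 −P with SynCom at low Pi, and a library of high residual spread, B1 of Col-0 +P without bacteria at high Pi. RNA of whole seedlings cannot tell fewer cells of a type from less RNA per cell.

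Without bacteria all 5 genes had lower median levels in experiment B than in experiment A, and CYP71A13 and PAD3 were close to 0 in most libraries of B. PAD3 had 35.4 to 190.1 CPM in the 36 libraries of A (median 106.6) and 0.376 to 22.8 CPM in the 36 of B (median 2.77). CYP71A13 had 17.0 to 155.3 CPM in A (median 71.4) and 0 to 15.5 CPM in B (median 0.557). In B, 25 of the 36 libraries were below 1 CPM for CYP71A13, and the counts of the 36 ran from 0 to 57 with a median of 2. Counts that low mean that a fold change against these libraries is imprecise. CYP71A12 had 20.7 to 179.3 CPM in A (median 77.2) and 0 to 37.1 in B (median 5.38). GSTF6, which encodes an abundant glutathione transferase, had 291 to 600.2 CPM in A (median 475.4) and 33.2 to 338.1 in B (median 139.5). WRKY33 differed least of the 5, with 60.6 to 198.3 CPM in A (median 114.4) and 25.2 to 115.8 in B (median 72.9). Setting the 6 libraries of each experiment side by side in the 6 combinations of genotype and Pi, every B library was below every A library in 6 of 6 for CYP71A12, CYP71A13 and PAD3, in 5 for GSTF6 and in 3 for WRKY33. How often libraries separate in this way over all genes was not counted, here or where overlap is given below.

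**Figure D1:**
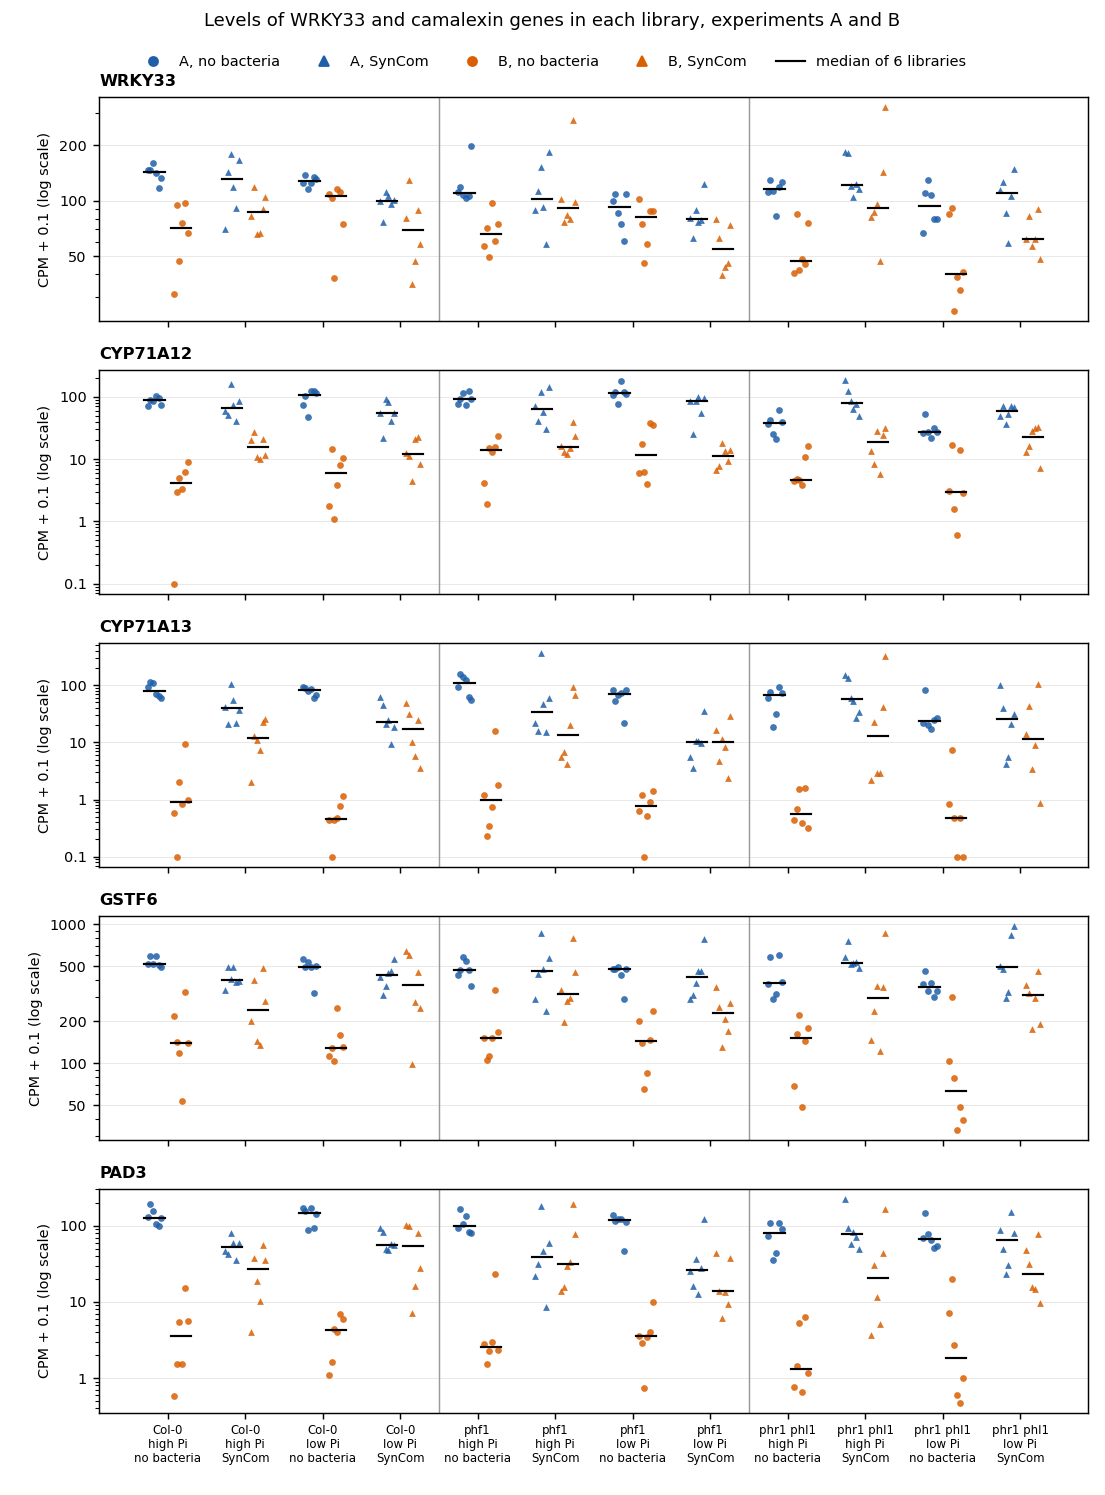
CPM of the 5 genes in every library (each point is a library; log axis, with 0.1 added so that 0 can be drawn), by genotype, Pi level and bacteria, with experiments A and B beside each other. Without bacteria, the CYP71A13 and PAD3 points of B lie below those of A in all 6 combinations, and with SynCom the points of the experiments overlap.

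Across the 6 combinations without bacteria, 28 of the 30 gene-by-combination comparisons of B against A were called lower and 0 higher, where 22.4% of all such comparisons over the 19321 genes were called lower (edgeR quasi-likelihood test, adjusted p under 0.05). The log2 difference of CYP71A13 ran from -7.62 ± 0.78 (SE, 6 libraries each, Col-0 at low Pi) to -5.51 ± 0.93 (phr1 phl1 at low Pi). PAD3 ran from -5.37 ± 0.53 to -4.73 ± 0.50. For CYP71A12 the range was -4.51 ± 0.43 to -2.50 ± 0.39 and for GSTF6 -2.18 ± 0.30 to -1.54 ± 0.28. WRKY33 was called lower in 4 combinations, by -1.04 ± 0.24 (Col-0, high Pi), -0.85 ± 0.23 (phf1, high Pi), -1.01 ± 0.24 and -1.01 ± 0.25 (phr1 phl1, high and low Pi). In Col-0 and phf1 at low Pi its differences were -0.49 ± 0.23 and -0.28 ± 0.24, with edgeR adjusted p = 0.0688 and 0.319, and without the 4 libraries against their labels that in Col-0 was called (-0.55, edgeR adjusted p = 0.0425). In each of the 6 combinations the regulator's difference was the smallest of the 5, although no test set the genes against each other. Of the 28 calls, 26 held under every alternative to the processing that was run, the others being CYP71A13 in Col-0 at high Pi, lost with limma-voom, and WRKY33 in phf1 at high Pi, lost without replicate A2 or B1.

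With SynCom the experiments came closer. PAD3 had 8.48 to 223 CPM in A (median 52.5) and 3.54 to 193.9 in B (median 28.7), and CYP71A13 had 3.40 to 363.4 in A (median 28.8) and 0.775 to 321.7 in B (median 11.3). GSTF6 medians were 461.1 and 281.9 CPM, WRKY33 medians 105.7 and 79.7. The libraries of the experiments overlapped in all 6 combinations for these 4 genes. CYP71A12 stayed apart, with 21.3 to 183.4 CPM in A (median 68.5) and 4.42 to 39.2 in B (median 13.7), and every B library was below every A library in 4 of 6 combinations. By the same test 15 of 30 comparisons were called lower in B, against 12.7% over all genes: CYP71A12 in all 6 (-2.77 ± 0.37 to -1.50 ± 0.35), CYP71A13 in 3, GSTF6 in 3, PAD3 in 2 and WRKY33 in 1. The called CYP71A13 differences were those at high Pi, -1.78 ± 0.51 in Col-0, -1.58 ± 0.49 in phf1 and -1.77 ± 0.53 in phr1 phl1, and at low Pi its differences lay between -0.68 and 0.08. Without the 4 libraries against their labels the difference in phf1 at high Pi was -0.42 and not called (edgeR adjusted p = 0.682), while GSTF6 in Col-0 at high Pi (-0.72) and PAD3 in phr1 phl1 at low Pi (-1.04) were called. Of the 15 calls, 6 held under every alternative.

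**Figure D2:**
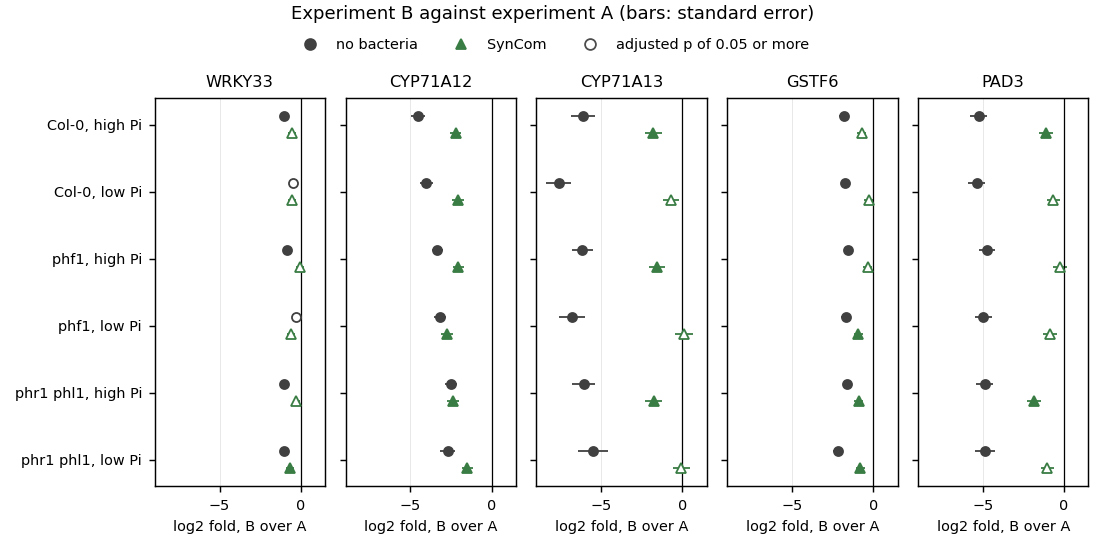
Log2 difference of experiment B against A (edgeR, bars are ± 1 SE, 6 libraries in each arm) for each gene, genotype and Pi level, without bacteria and with SynCom. Without bacteria CYP71A13 and PAD3 lie at -4.73 or lower, with SynCom between -1.86 and 0.08, and CYP71A12 lies at -1.50 or lower in both.

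Experiment A and B differed in other markers too. The summed level of the 5 shoot markers had medians of 28209 to 31491 CPM over the 4 combinations of Pi and bacteria in A and of 39027 to 47102 CPM in B. Without bacteria 2 to 5 of the 5 were called higher in B in each combination of genotype and Pi, and in phf1 at high Pi 1 was called lower. The 9 root markers summed to medians of 1143 and 1220 CPM in A and of 1085 and 1259 CPM in B without bacteria, with ranges that overlapped. PYK10 made up most of these sums, with medians of 1105 CPM in A and 1031 in B. Of the 9, 3 or 4 were called higher in B and 0 or 1 lower. Over all genes 14.7 to 28.2% were called higher in B by combination (20.9% over the 6) and 14.8 to 28.8% lower. Of the 8 rapid wound and touch genes 1 or 2 were called higher in B and 2 to 4 lower, and none of the marker genes was at 0 in every library. The part of these markers in the differences of the camalexin genes was not tested. The labels give no other difference between the experiments, so that what separates A from B cannot be told apart.

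SynCom raised the camalexin enzymes in experiment B. In Col-0 at low Pi, CYP71A13 had 0 to 1.07 CPM without bacteria (median 0.357) and 3.53 to 49.7 with SynCom (median 17.4). PAD3 had 1.00 to 6.84 CPM (median 4.16) and 7.05 to 102 (median 53.8), and no library with SynCom was below the highest library without it for either gene. The fitted log2 changes were 5.34 ± 0.92 for CYP71A13 and 3.58 ± 0.54 for PAD3 (edgeR adjusted p = 2.92e-06 and 1.68e-07). Of the 30 comparisons of SynCom with no bacteria in B, 23 were called higher and 0 lower, where 9.79% of all gene-by-comparison tests were called higher, 4.7 to 17.6% by combination.

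CYP71A13 and PAD3 were called in all 6 combinations of genotype and Pi. CYP71A13 rose by 3.36 ± 0.93 (Col-0, high Pi) to 5.34 ± 0.92 on the log2 scale, and PAD3 by 2.42 ± 0.59 (phf1, low Pi) to 3.58 ± 0.54. The libraries separated completely in 3 of the 6 combinations for CYP71A13 and in 1 for PAD3, and elsewhere a few libraries without bacteria reached into the SynCom range. GSTF6 rose in 5 combinations, by 0.73 ± 0.28 (phf1, low Pi) to 1.91 ± 0.29 (phr1 phl1, low Pi), and in Col-0 at high Pi its change was 0.72 ± 0.28 with edgeR adjusted p = 0.0969. CYP71A12 rose in 4, by 1.11 ± 0.42 in Col-0 at low Pi, 2.09 ± 0.49 in Col-0 at high Pi, 2.09 ± 0.50 in phr1 phl1 at low Pi and 1.45 ± 0.42 in phr1 phl1 at high Pi. In phf1 its values were -0.27 ± 0.43 at low Pi and 0.96 ± 0.38 at high Pi, neither called. Without the B1 or B2 libraries 16 and 17 of the 30 were called, and limma-voom called 18. Of the 12 calls of CYP71A13 and PAD3, 4 held under every alternative, those of both genes in Col-0 at low Pi and of PAD3 in phf1. Without B2 CYP71A13 was lost in all genotypes at high Pi (log2 changes of 1.89 to 2.94) and PAD3 in Col-0 and phr1 phl1 (2.18 and 2.06). Without B1 both were lost in phr1 phl1 at low Pi, with limma-voom both in Col-0 at high Pi and CYP71A13 in phr1 phl1 at low Pi, and with near copies summed CYP71A13 in phf1 at low Pi (0.75 in place of 4.28).

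WRKY33 was called in B in the mutants at high Pi. In phr1 phl1 its levels were 40.4 to 84.6 CPM without bacteria (median 46.9) and 46.8 to 320.3 with SynCom (median 91.4), a log2 change of 1.01 ± 0.24 (edgeR adjusted p = 0.00239). In phf1 they were 49.4 to 96.8 CPM (median 66.0) and 76.6 to 272.1 (median 90.7), a change of 0.70 ± 0.23 (edgeR adjusted p = 0.0379). At low Pi its changes were -0.42 ± 0.24 in Col-0, -0.40 ± 0.24 in phf1 and 0.51 ± 0.25 in phr1 phl1, none called, while PAD3 and CYP71A13 rose in the same libraries. The highest WRKY33 level of all libraries, 320.3 CPM, and the second highest, 272.1, were −P libraries of B at high Pi with SynCom, 1 of phr1 phl1 (B2) and 1 of phf1 (B1). Without the B1 libraries the WRKY33 changes were 0.06 in phf1 and 0.68 in phr1 phl1, neither called (edgeR adjusted p = 0.932 and 0.159).

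In experiment A PAD3, CYP71A13 and CYP71A12 fell with SynCom in some combinations, and 1 comparison went up. For PAD3 in Col-0 at low Pi the 6 libraries without bacteria had 86.9 to 172 CPM (median 149) and the 6 with SynCom 48.0 to 93.3 (median 56.6). At high Pi they had 99.4 to 190.1 CPM (median 127) and 35.0 to 81.1 (median 52.3), with no overlap. The log2 changes were -1.12 ± 0.38 and -1.34 ± 0.39, and in phf1 at low Pi -1.66 ± 0.40 (edgeR adjusted p = 0.02, 0.00728 and 0.00126). CYP71A13 fell by 1.60 ± 0.45 in Col-0, and in phf1 the change was -2.59 ± 0.49, both at low Pi. CYP71A12 fell by 0.83 ± 0.31 in Col-0 at low Pi. The 1 call of a rise was CYP71A12 in phr1 phl1 at high Pi, from 20.7 to 60.4 CPM without bacteria (median 37.9) to 48.7 to 183.4 with SynCom (median 80.5), a log2 change of 1.34 ± 0.32. Thus 6 of 30 comparisons were called lower, against 6.56% over all genes, and 1 higher, against 8.83%. Of these 7 calls, 1 held under every alternative, that of CYP71A13 in phf1 at low Pi. With DESeq2 those of CYP71A12 and PAD3 in Col-0 at low Pi were lost, and with near copies summed the rise of CYP71A12. WRKY33 lay between -0.39 and 0.26 and GSTF6 between -0.37 and 0.52, none called. For WRKY33 in Col-0 at low Pi the 6 libraries with SynCom (76.4 to 111.1 CPM) were all below the 6 without (116.2 to 137.5), a change of -0.39 ± 0.23 (edgeR adjusted p = 0.221). Without the 4 libraries against their labels CYP71A13 and PAD3 were also called lower in phf1 at high Pi, at -2.06 and -2.33 in place of -0.87 and -1.17. Without the A1 or A2 libraries 3 and 1 of the 30 were called.

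The difference between the experiments' SynCom effects was tested in itself, as the effect in B minus the effect in A. It was called higher in 17 of 30 comparisons, where 8.58% of all gene-by-comparison tests were, and lower in 0. Of these 17 calls, 7 held under every alternative. CYP71A13 had differences of 4.33 ± 1.04 to 6.94 ± 1.02 on the log2 scale and PAD3 of 3.03 ± 0.73 to 4.71 ± 0.67, called in all 6 combinations each. GSTF6 was called in Col-0 at low Pi (1.43 ± 0.39), Col-0 at high Pi (1.09 ± 0.39) and phr1 phl1 at low Pi (1.38 ± 0.40), and CYP71A12 in Col-0 (1.94 ± 0.52 at low and 2.30 ± 0.59 at high Pi). For WRKY33 the differences were -0.32 to 0.80, none called. In phf1 at high Pi, WRKY33, GSTF6 and CYP71A12 were called too without the 4 libraries against their labels, at 1.34, 1.66 and 2.06. Without the A2 libraries 11 of 30 were called. The contrast uses the same libraries as the comparison of B with A above, so the 2 sets of values are not independent.

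**Figure D3:**
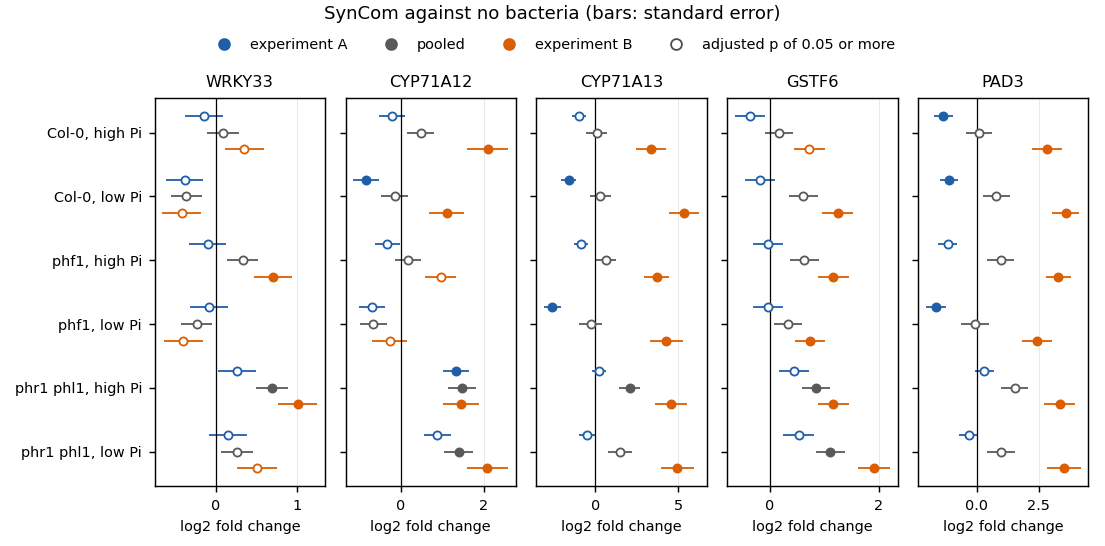
Log2 change with SynCom against no bacteria (edgeR, bars are ± 1 SE) for each gene in each genotype and Pi level, in experiment A and B (6 libraries an arm) and over both (12 an arm). CYP71A13 and PAD3 lie at 2.42 or more in B and at 0.31 or less in A, and WRKY33 runs from -0.42 to 1.01 over all 3 views.

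Over both experiments 6 of 30 comparisons were called higher and 0 lower, against 6.06% higher over all genes, and all 6 were in phr1 phl1 in that fit. CYP71A12 rose there by 1.40 ± 0.35 at low and 1.47 ± 0.33 at high Pi, GSTF6 by 1.11 ± 0.27 and 0.85 ± 0.26, and at high Pi CYP71A13 by 2.09 ± 0.63 and WRKY33 by 0.69 ± 0.19. PAD3 in phr1 phl1 at high Pi gave 1.53 ± 0.54 (edgeR adjusted p = 0.0913). The count depends on the fit: with separate means for each group in each experiment 16 were called higher and 1 lower, with no experiment term 0, and without the B1 or B2 libraries 1 and 3. The GSTF6 change at high Pi was not called without the 4 libraries against their labels (0.85, edgeR adjusted p = 0.055). In Col-0 and phf1 edgeR called 0 of 20 (3 at an unadjusted p under 0.05, 0 by DESeq2 and 2 by limma-voom), with values of -0.66 to 0.96, but with separate means for each group in each experiment 7 of these 20 were called higher and 1 lower. A call in phr1 phl1 and not in Col-0 does not show that they differ: the difference of the effects was called in 1 of 20 comparisons, CYP71A12 in phr1 phl1 at low Pi (1.54 ± 0.47, edgeR adjusted p = 0.0296), against 0.926% called higher over all genes. It was not called without the A1 or A2 libraries (1.67 and 1.08). The SynCom effect at low minus high Pi was called by edgeR for 0 of 15 (1 at an unadjusted p under 0.05, 0 by DESeq2 and 0 by limma-voom), against 6.67% in either direction, with values of -1.04 to 0.70.

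Within single pre-treatments, 4 libraries against 4, 2 of 90 comparisons were called higher, against 1.2% over all genes. GSTF6 in phr1 phl1 after −P at low Pi had 298.3, 331.1, 48.2 and 39.0 CPM without bacteria (A1, A2, B1, B2) and 830.6, 966.4, 460.7 and 192.5 with SynCom, a log2 change of 1.97 ± 0.47 (edgeR adjusted p = 0.0148). Each library with SynCom was above both without it from the same experiment. CYP71A12 in phr1 phl1 after +Phi at low Pi had 27.3, 21.6, 1.48 and 0.496 CPM without bacteria and 36.6, 52.4, 28.6 and 31.1 with SynCom, a change of 2.40 ± 0.64 (edgeR adjusted p = 0.0481). The B libraries without bacteria held 4 and 1 counts there. Neither call held under all alternatives: without the A2 or B1 libraries 0 of 90 were called, without the 4 libraries against their labels CYP71A12 was not (2.39, edgeR adjusted p = 0.0558), and GSTF6 was not when the shallowest library, that with 830.6 CPM, was left out with 5 others.

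Replicates of some groups with SynCom spread widely in the enzymes. In phr1 phl1 after −P at high Pi in B, CYP71A13 had 41.1 and 321.7 CPM and PAD3 43.2 and 165.2. In phr1 phl1 after −P at low Pi in B, CYP71A13 had 105.0 and 0.775 CPM, PAD3 77.0 and 9.69. In phf1 after +Phi at high Pi in A, CYP71A13 had 363.4 and 46.3 CPM, where the high library is among the 4 whose PHL1 went against its label. These groups were picked for their spread. Over all groups with SynCom, the library with more CYP71A13 also had more PAD3 in 12 of 18 in A and in 12 of 18 in B. Over all groups without bacteria it did in 15 of 18 in A and in 12 of 18 in B.

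Mean levels of the 2 libraries of a group show where each gene was highest and lowest. In A, WRKY33 ran from 71.5 CPM (phf1 +P, low Pi, SynCom) to 181.6 (phr1 phl1 +P, high Pi, SynCom, 1 of whose libraries went against its label), and in B from 32.0 (phr1 phl1 +Phi, low Pi, no bacteria) to 232 (phr1 phl1 −P, high Pi, SynCom). CYP71A13 ran from 4.44 (phf1 +P, low Pi, SynCom) to 204.9 (phf1 +Phi, high Pi, SynCom, again with 1 such library) in A and from 0.167 (Col-0 +P, low Pi, no bacteria) to 181.4 (phr1 phl1 −P, high Pi, SynCom) in B. PAD3 was highest in A at 163.1 CPM in Col-0 +P at low Pi without bacteria, and highest in B at 136.4 in phf1 −P at high Pi with SynCom. The group with the most PAD3 was thus without bacteria in A and with SynCom in B.

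Ordered by the median of 6 libraries, the 12 combinations of genotype, Pi and bacteria gave different orders for PAD3 in the experiments. In A the 5 highest medians were all without bacteria, from 149 CPM in Col-0 at low Pi over 127 in Col-0 at high Pi, 119 and 99.3 in phf1 at low and high Pi to 80.9 in phr1 phl1 at high Pi. The lowest was 26.5 in phf1 at low Pi with SynCom. In B the 6 highest were all with SynCom, from 53.8 in Col-0 at low Pi over 31.7 (phf1, high Pi), 26.7 (Col-0, high Pi), 23.4 and 20.8 (phr1 phl1, low and high Pi) to 13.7 (phf1, low Pi), and the 6 without bacteria followed at 1.21 to 4.16. CYP71A13 had the same split in B, with medians of 9.93 to 17.4 CPM with SynCom and 0.357 to 0.872 without. Neighbours in each of these orders overlapped in their libraries for every gene. Distant places could overlap too: for PAD3 in A the first ran from 86.9 to 172 CPM and the last from 12.5 to 124.3.

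CYP71A12 kept another order. In A its medians were highest without bacteria in phf1 at low Pi (115 CPM, 77.8 to 179.3) and Col-0 at low Pi (107, 47.1 to 123.8), and lowest without bacteria in phr1 phl1 (37.9 CPM at high Pi and 27.1 at low Pi, 21.6 to 52.3). In B the lowest median was again phr1 phl1 at low Pi without bacteria, at 2.83 CPM, and the highest phr1 phl1 at low Pi with SynCom, at 22.2. WRKY33 medians ran from 79.5 (phf1, low Pi, SynCom) to 143 CPM (Col-0, high Pi, no bacteria) in A and from 39.7 (phr1 phl1, low Pi, no bacteria) to 106 (Col-0, low Pi, no bacteria) in B. GSTF6 medians ran from 351 (phr1 phl1, low Pi, no bacteria) to 528 CPM (phr1 phl1, high Pi, SynCom) in A and from 63.1 to 365 in B. The combination phr1 phl1 at low Pi without bacteria had the lowest median of CYP71A12 and GSTF6 in both experiments.

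Low against high Pi gave few calls. Over both experiments 2 of 30 comparisons were called lower and 0 higher, against 7.96% lower over all genes, both for WRKY33 with SynCom: -0.74 ± 0.19 in phf1 and -0.63 ± 0.19 in phr1 phl1 (12 libraries an arm, edgeR adjusted p = 0.00132 and 0.0239). In A, 2 of 30 were called lower, against 8.85%, namely CYP71A13 with SynCom in phf1 (-2.35 ± 0.51) and phr1 phl1 (-1.56 ± 0.48). In B, 4 of 30 were called lower, against 6.07%: WRKY33 with SynCom in phf1 (-0.98 ± 0.24) and phr1 phl1 (-0.75 ± 0.24), and GSTF6 (-0.69 ± 0.28) and PAD3 (-1.11 ± 0.44) with SynCom in phf1. Over both experiments and in A these shares were below those of all genes. All 8 calls were of libraries with SynCom, but they are not independent: WRKY33 in phf1 and phr1 phl1 is counted over both experiments and again in B. Over both experiments, unadjusted edgeR p was under 0.05 for 9889, 9311 and 4932 genes with SynCom (Col-0, phf1, phr1 phl1). Without bacteria it was for 2437, 4138 and 1746 genes, so that low p-values were more frequent with SynCom over all genes too. In A phf1 went the other way, with 6987 genes with SynCom and 7383 without. Without the 4 libraries against their labels the CYP71A13 change in phf1 in A was -1.18 and not called (edgeR adjusted p = 0.169), and without the B1 libraries WRKY33 in phf1 was at -0.46 over both experiments and -0.52 in B, not called. Without A1 in A, and without B1 in B, 0 of 30 were called.

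Genotype gave as few. Over both experiments 2 of 40 comparisons with Col-0 were called lower, against 2.18% over all genes, both in phr1 phl1 at low Pi without bacteria: CYP71A12 by -1.12 ± 0.34 and WRKY33 by -0.63 ± 0.19 (edgeR adjusted p = 0.0406 and 0.0411). In A the same contrast was called for CYP71A12 (-1.65 ± 0.32) and CYP71A13 (-1.42 ± 0.44), 2 of 40 against 3.23%. In B it was called for WRKY33 (-0.97 ± 0.25), 1 of 40 against 1.65%. Without the A2 libraries both calls in A were lost, CYP71A13 also without A1 or with DESeq2, and the call in B without B1 or B2. Without the 4 libraries against their labels CYP71A12 at high Pi in A (-1.30) and GSTF6 at low Pi in B (-0.88) were called as well, both in phr1 phl1 without bacteria. No comparison of phf1 with Col-0 was called in A, in B or over both. In single comparisons of a mutant with Col-0, phr1 phl1 included, 0.0569 to 27.7% of all genes were called over both experiments. The ranges were 0.186 to 32.5% in A and 0.0414 to 10.2% in B, so that a lack of calls is not read as a trait of these genes. Pre-treatment was called in 1 of 30 comparisons, against 0.612% lower over all genes: CYP71A13 in phr1 phl1 was lower after +Phi than after +P (-1.87 ± 0.59, 16 libraries an arm, edgeR adjusted p = 0.0481). That call was lost without the 4 libraries against their labels (-1.84, edgeR adjusted p = 0.0748), and without the A2 or B2 libraries no genotype or pre-treatment call over both experiments was left.

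CYP71A12 and CYP71A13 are the same coding length, so their counts can be set side by side, although reads in stretches they share may have been counted for either. The share of CYP71A13 in the counts of both had a median of 46.0% in A without bacteria (15.4 to 64.8% over 36 libraries) and of 29.7% in A with SynCom (6.01 to 75.2%). In B it was 8.71% without bacteria and 46.8% with SynCom (8.89 to 91.0%). By these medians CYP71A12 held most of the counts in B without bacteria and about as many as its copy with SynCom. With counts of both copies so low in B without bacteria, its range there was 0 to 100%. GSTF6 and its neighbour GSTF7 (AT1G02920), 1107 bases away with 94.29% identity over the coding sequence and identical runs of up to 116 bases, stayed nearer to equal counts: the share of GSTF6 had medians of 49.7, 47.4, 48.2 and 54.3% in the same order, within 39.8 to 54.4% in A and 39.3 to 67.0% in B. GSTF7 had SynCom changes in B of 0.20 to 1.65, called in 3 of 6 combinations, against 0.72 to 1.91 and 5 of 6 for GSTF6.

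**Figure D4:**
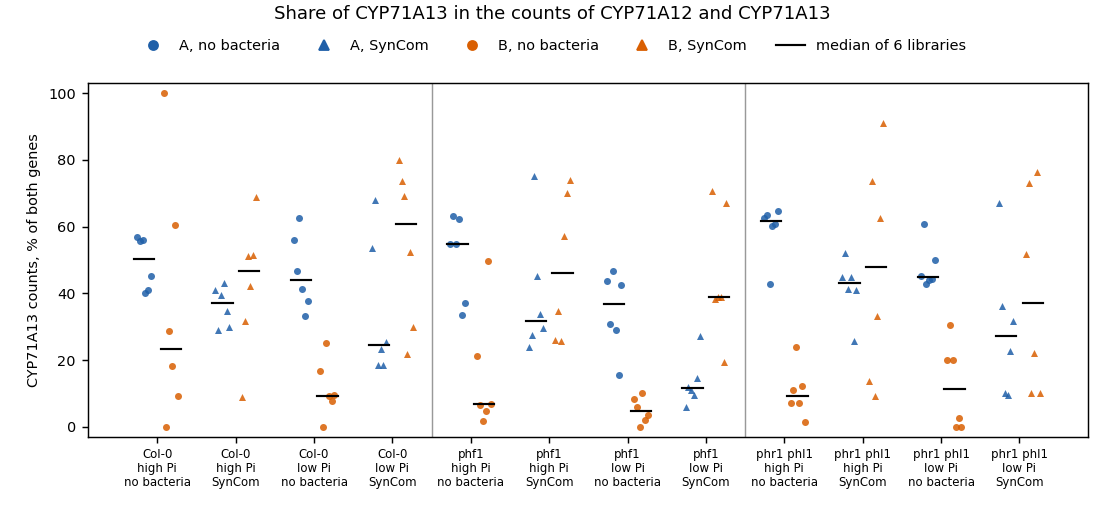
Share of CYP71A13 in the summed counts of CYP71A12 and CYP71A13 (percent) in each library, by genotype, Pi level and bacteria, in experiments A and B. In B the medians are 8.71% without bacteria and 46.8% with SynCom, and in A 46.0% and 29.7%.

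Over the 36 group means within an experiment, CYP71A13 and PAD3 moved together (Pearson r of log2 CPM 0.83 in A and 0.95 in B, a description over groups that share experiments and libraries). WRKY33 followed them less closely, with r of 0.65 and 0.55 to CYP71A13 and 0.58 and 0.61 to PAD3, and CYP71A12 had r of 0.48 and 0.65 to CYP71A13. Among 15206 genes that averaged 5 CPM or more, those most like each gene in both experiments were ranked by the lower of the 2 values. For CYP71A13 the first was the exporter gene ABCG40 (0.89 and 0.88), followed by the wall-associated kinase gene WAK3, PAD3, SAG13 and AIG1. For PAD3 it was AT5G52810 (0.90 and 0.90), followed by WAK3, WRKY46, ABCG40 and EDS1, the last a hub of defence signalling. For CYP71A12 it was AT1G26380 (0.78 and 0.76), which encodes FOX1, an oxidase of another indole branch, then AT5G42830, PBS3, AT1G26410 and AT1G08050. For GSTF6 it was its neighbour GSTF7 (0.93 and 0.94), then AT3G19010, LEJ1, AMT2 and ARCK1, and for WRKY33 CNGC13 (0.83 and 0.83), SERK4, AT1G03370, AT4G23470 and EDA39.

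Genes that supply the pathway were taken from lists. Of the 6 genes of tryptophan synthesis 6, 3, 5, 5, 6 and 5 were called higher with SynCom in B and 0 lower, in Col-0, phf1 and phr1 phl1 at low and high Pi in turn. Over all genes 17.6, 4.7, 17.3, 6.38, 7.47 and 5.31% were called higher there and 16.3, 3.25, 16.1, 5.45, 6.01 and 3.07% lower (8.38% over the 6). The list had medians of 0.54 to 0.96 where the medians of all genes were -0.003 to 0.036. IGPS, which makes indole-3-glycerol phosphate, rose by 1.44 ± 0.19 in Col-0 at low Pi, and TSA1, the tryptophan synthase alpha subunit, by 1.21 ± 0.17. In A 0 of 6 were called in Col-0 and phf1, and 3 and 1 in phr1 phl1 at low and high Pi. Over all genes 4.54 to 28% were called in either direction in A by combination, 3.13 to 15.7% higher and 1.41 to 12.4% lower. Without bacteria all 6 were called lower in B than in A in each combination, with medians of -1.44 to -1.07, where 22.4% of all such tests over all genes were called lower.

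The 11 tested genes of the list on the indole-3-acetaldoxime branch and the exporters were mixed. CYP79B2 and CYP79B3, which make the aldoxime from tryptophan, rose with SynCom in B at low Pi, CYP79B2 by 3.53 ± 0.26 in Col-0, 2.65 ± 0.24 in phf1 and 1.78 ± 0.25 in phr1 phl1, and CYP79B3 by 2.01, 1.59 and 1.28 (each ± 0.20). At high Pi CYP79B2 rose by 1.41 ± 0.29 in Col-0 and 1.38 ± 0.26 in phr1 phl1, and CYP79B3 was not called. GGP1, a peptidase that trims the glutathione conjugate, rose at low Pi by 1.21 to 1.28, while GGP3, a related peptidase, fell by 0.93 ± 0.11 in Col-0, 0.73 ± 0.12 in phf1 and 0.43 ± 0.12 in phr1 phl1. ABCG40, an exporter, rose by 2.30 ± 0.73 in Col-0 and 2.25 ± 0.74 in phr1 phl1 at low Pi in B. In A it fell by 2.25 ± 0.52 in Col-0 and by 3.52 ± 0.57 in phf1, also at low Pi. In all, 1 to 4 of the 11 were called higher and 1 to 3 lower in the combinations of B. Over all genes 4.7 to 17.6% were higher there and 3.07 to 16.3% lower. In the combinations of A 0 to 5 were called higher and 0 to 2 lower, against 3.13 to 15.7% and 1.41 to 12.4% of all genes. Counts of 1 of 11 are thus near the shares of all genes. CYP79B2 and CYP79B3 rose in A as well in Col-0 at low Pi, by 0.78 ± 0.22 and 1.28 ± 0.20. Over both experiments 4, 0, 4, 0, 3 and 1 were called higher and 2, 0, 3, 0, 0 and 0 lower, in the order given above (2.43 to 14.2% of all genes higher and 0.895 to 12.9% lower, 4.73% over the 6). CYP79B3 was there the gene with the smallest p in each genotype at low Pi (1.62, 1.04 and 0.98, each ± 0.17). Without bacteria 5 to 8 of the 11 were called lower in B than in A, against 22.4% over all genes, CYP79B2 by -3.46 to -1.51 and ABCG40 by -5.84 to -3.01, whereas GGP3 was called higher in all 6 (0.68 to 1.15).

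Of the 19 regulators upstream of or beside WRKY33, 9, 3, 5, 7, 5 and 7 were called higher with SynCom in B in the same order, and 2, 0, 3, 0, 0 and 0 lower, against the shares of all genes given for tryptophan synthesis; 3 of 19 lower at low Pi in phf1 is near that share. SIB1, a partner of WRKY33, rose in all 6 combinations, by up to 2.62 ± 0.38 (phr1 phl1, high Pi). MYB51, a regulator of indole glucosinolate synthesis, rose by 0.90 ± 0.24 to 1.23 ± 0.24 in 4, and MYB34, which acts in the same pathway, rose at low Pi by 1.15 to 1.96. The kinase gene MPK3 rose in 1 combination (0.67 ± 0.16, phf1 at high Pi) and MPK6 fell in 1 (-0.31 ± 0.12, Col-0 at low Pi). ANAC042, a NAC factor known to be needed for full camalexin synthesis, rose in 3, by 1.35 to 2.01. In A 0 to 2 of the 19 were called higher and 0 to 7 lower, against 3.13 to 15.7% and 1.41 to 12.4% of all genes by combination. Without bacteria 10 to 14 of the 19 were called lower in B than in A, again against 22.4%, with SIB1 at -3.44 to -2.72.

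The marker lists moved with SynCom in B too. Of the 8 rapid wound and touch genes, 5 were called lower in Col-0 and 4 in phf1 at low Pi, 2 lower and 2 higher in phr1 phl1 at low Pi, and 2 higher in each mutant at high Pi. Over all genes 4.7 to 17.6% were called higher in B by combination and 3.07 to 16.3% lower. Their summed level at low Pi in B was 282.3 to 1808 CPM without bacteria and 291.8 to 1043 with SynCom. Of the 9 root markers 2 to 4 were called lower in each combination and 2 higher in phf1 at low Pi. At high Pi their sum was 923.3 to 1255 CPM without bacteria and 586.1 to 902.3 with SynCom, with no overlap. Most of that sum was PYK10, with medians in B over both Pi levels of 1031 CPM without bacteria and 751 with SynCom. The other root markers differed among themselves: CASP1 had medians of 45.1 and 21.4 CPM, and SCR of 33.1 and 33.0. Of the 5 shoot markers 0 or 1 were called, all higher. Root counts of 2 of 9 lower at low Pi in Col-0 and phf1 are near the 16.3 and 16.1% of all genes there, and 3 or 4 of 9 at high Pi stand beside 3.07 to 5.45%. In A 7 of the 9 root markers were called higher in Col-0 at low Pi and 0 to 3 in the other combinations, and 2 of the touch genes lower in Col-0 and phf1 at low Pi. Of the shoot markers in A, 1 was higher and 2 lower in Col-0 at low Pi, 1 lower in Col-0 and in phr1 phl1 at high Pi, and 2 higher in phf1 at low Pi. Over all genes 3.13 to 15.7% were called higher in A by combination and 1.41 to 12.4% lower, so that counts of 1 or 2 are not read as a trait of a list. These markers' part in the SynCom changes of the camalexin genes was not tested.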

How the data were processed

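Per the labels, poly(A) RNA of whole seedlings was sequenced without strand information; a read where genes of both strands overlap cannot be assigned to either. The deposited values are raw counts per gene and library, which the authors did not normalise. Per the submitters' processing notes, CASAVA 1.8, cutadapt 1.3, TopHat2 2.1.1, HTSeq 0.6.1p1 and the TAIR10 build were used, with no role or setting named. How reads that match near copies were counted is not given in the sources used here.

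Low counts were removed with filterByExpr (36 groups, minimum count of 10), and library sizes were scaled by TMM (factors 0.823 to 1.19). Differences came from edgeR 4.0.16 (R 4.3.3), quasi-likelihood test, with Benjamini-Hochberg adjustment over all genes tested in a comparison and a threshold of 0.05. Contrasts over both experiments used means of the 36 groups and a term for experiment. Contrasts within or between experiments used 72 means, 1 for each group in each experiment. Contrasts averaged over the 3 pre-treatments, except those between pre-treatments, which averaged over Pi and bacteria, and those within a single pre-treatment. All libraries entered each fit, 109 contrasts in all. Standard errors were taken from the log2 change and its F value. The share called over all genes beside a count of members is over all gene-by-contrast tests of the same kind and direction.

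Alternatives were the Wald test of DESeq2 1.42.0, voom with library weights in limma 3.58.1, the size factors of DESeq2 in edgeR, no filter, a stricter filter (CPM of at least 1 in 72 libraries), dropping replicate number A1, A2, B1 or B2 throughout, leaving out the 4 libraries whose PHR1 or PHL1 went against the label or these and 2 more, summed counts of near copies, a replicate block, no experiment term, 72 means for the contrasts over both experiments, and a separate fit of each experiment. The members, lists and tests were chosen with earlier results of these data known. Named from the lists are at most 4 genes with the smallest p in each comparison of SynCom over both experiments, and the 5 genes most like each member were ranked on log2 CPM with a prior count of 2.

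Within groups 216 pairs of libraries were compared, and 0 held identical counts. The closest pair had a chi-square per degree of freedom of 1.33, against a median of 16.5. On simulated counts standing for the SynCom comparison of phr1 phl1 at high Pi (19024 genes), the fit over both experiments recovered 31.3, 76.9 and 98.5% of genes changed 1.5, 2 and 4-fold, and that within experiment B 5.97, 36.9 and 87.7%, with 5 false calls of 18827 each. The simulated counts held no differences between experiments or groups other than the planted changes, with spread taken from a single group. They do not show recovery for genes whose SynCom effect differs between the experiments.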

Additional observations from a re-analysis of the deposited data

Results flagged for a closer look

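The 6 libraries of a genotype, Pi level, bacteria state and experiment were searched for a library far from the rest (2 libraries of each pre-treatment, so that a pre-treatment can also set 1 apart). This gave 29 of 120 sets, 26 for the highest library and 3 for the lowest. The cutoff flags about 5% of sets of independent normal values. These were CPM on a linear scale from genes that share libraries, so that the share by chance is not known here. The same library was often set apart in several genes.

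Of the −P libraries of experiment B with SynCom at high Pi, phr1 phl1 B2 stood out with 320.3 CPM for WRKY33, 321.7 for CYP71A13, 865.8 for GSTF6 and 165.2 for PAD3, and phf1 B1 with 272.1 for WRKY33 and 193.9 for PAD3. The −P library B1 of phf1 at high Pi without bacteria stood out with 15.5 CPM for CYP71A13, 338.1 for GSTF6 and 22.8 for PAD3, and that of Col-0 with 9.47 for CYP71A13 and 15.2 for PAD3. In phr1 phl1 at low Pi without bacteria the +P library B2 stood out with 7.36 CPM for CYP71A13, 299.9 for GSTF6 and 20.04 for PAD3, and the +P library A2 with 52.3 for CYP71A12, 81.1 for CYP71A13 and 144.9 for PAD3.

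The −P library A2 of phf1 at low Pi with SynCom was set apart with 35.2 CPM for CYP71A13, 782.2 for GSTF6 and 124.3 for PAD3. The +Phi library A1 of phf1 at high Pi with SynCom, whose PHL1 went against its label, had 363.4 CPM for CYP71A13 and 183.4 for PAD3. In phr1 phl1 at high Pi with SynCom after +P, PAD3 had 223.0 CPM in A1, whose PHR1 and PHL1 went against its label, and GSTF6 had 758.9 in A2. Elsewhere WRKY33 had 198.3 CPM in phf1 −P A2 at high Pi without bacteria, and PAD3 had 9.98 in phf1 −P B2 at low Pi without bacteria. The 3 lowest libraries were all −P, A1, at low Pi without bacteria: GSTF6 at 318.4 in Col-0 and 291.5 in phf1, and PAD3 at 47.1 in phf1.

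The SynCom effects of the experiments differed by the test of the difference itself (edgeR, B minus A, log2). For CYP71A13 the difference was 6.94 and 4.34 in Col-0, 6.87 and 4.58 in phf1 and 5.44 and 4.33 in phr1 phl1, at low and high Pi in turn. For PAD3 it was 4.71 and 4.16, 4.08 and 4.47, and 3.85 and 3.03. For GSTF6 it was 1.43 and 1.09 in Col-0 and 1.38 in phr1 phl1 at low Pi, and for CYP71A12 1.94 and 2.30 in Col-0. The SynCom effect on CYP71A12 at low Pi over both experiments was larger in phr1 phl1 than in Col-0 by 1.54.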

How the results depend on the processing

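Counts of the 5 genes' calls below are out of the same comparisons as in the report. Of the results called in the report or under another setting, 1 changed direction: with counts of near copies summed, the CYP71A13 difference of B from A in phf1 at low Pi with SynCom was -1.92 instead of 0.08, where the sum by construction also holds the counts of CYP71A12. The size factors of DESeq2, no filter on low counts and a stricter filter each changed at most 10 single calls. For the effects of SynCom in A and in B, its difference between the experiments, and B against A, the counts of calls stayed within 1.5 times under every setting other than leaving out a replicate.

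For SynCom over both experiments 6 calls became 17 with 72 means and 0 with no experiment term, the low against high Pi calls 4 and 1, the genotype calls 0 with no experiment term, the pre-treatment call 3 and 0, the SynCom effect in mutants against Col-0 2 and 0, and SynCom within pre-treatments 10 and 0. With near copies summed the genotype calls over both experiments became 1, and the pre-treatment call, the mutant effect of SynCom and the low against high Pi calls in A became 0. SynCom within pre-treatments gave 1 with the size factors of DESeq2, the stricter filter, or without the 4 or the 6 libraries, and 4 with the test of DESeq2. The pre-treatment call became 0 with no filter and without the 4 or the 6 libraries. Low against high Pi in A gave 1 with DESeq2, 1 without the 4 libraries and 0 without the 6, and in B 1 with a separate fit. Genotype in A gave 1 with DESeq2 and 4 with limma-voom, and in B 3 with DESeq2 and 2 with limma-voom, with no filter, or without the 4 or the 6 libraries. The causes of these changes were not tested.

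Dropping A1, A2, B1 or B2, each in turn, leaves 1 library a group in that experiment, which is then assumed to vary like the others. The calls ran from 1 to 6 for SynCom over both experiments, 1 to 10 in A, 16 to 21 in B and 11 to 17 for B minus A. They ran from 0 to 2 within pre-treatments, 0 to 1 for the mutant effect of SynCom and 0 to 0 for its low minus high Pi difference. For B against A they ran from 35 to 44, for low against high Pi from 1 to 3 over both, 0 to 2 in A and 0 to 4 in B, for genotype from 0 to 1 over both, 0 to 2 in A and 0 to 1 in B, and for pre-treatment from 0 to 1.

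With the replicate block the pre-treatment call became 0 and the calls within pre-treatments 1, and over all single results 1 call was gained and 4 were lost. On average over the groups the numbers 1 and 2 did not pair the libraries: deviations of same-numbered libraries from their group means correlated at a mean of 0.0135 in A and 0.0118 in B. Of 630 pairs of groups, 25.2% in A and 37.5% in B correlated above 0.1, and a mean cannot show whether some groups were paired. Depth limits CYP71A13 without bacteria in B, where the median library held 2 counts.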
